A study of Amphimedon queenslandica and Mnemiopsis leidyi and Nematostella vectensis with 36 samples.

Results

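SP41 of the marine sponge Amphimedon queenslandica was the single factor with a peak in 10459 of the 52356 genomic regions bound by any of 5 sponge transcription factors in a test tube. Regions were made by joining all peaks, from 16 peak lists with 120443 peaks in all, that shared at least 1 bp on a contig. A region was kept when every peak in it came from an SP41 library, so the members were chosen by the measured peak calls themselves. SP41-only regions made up 20.0% of all regions (95% Wilson interval 19.6 to 20.3%, counting error only) and 44.7% (44.0 to 45.3%) of the 23412 regions with any SP41 peak. The remaining 12953 SP41 regions also held a peak of NRF, YY1, EGR or GLI and are called shared below. Because peak calls of these libraries fixed membership, all comparisons of SP41-only with shared regions are descriptions without a test.

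SP proteins are transcription factors with zinc fingers of the C2H2 type, close relatives of the KLF family. In mammals they are known for binding GC boxes and related GT boxes in promoters, and EGR proteins, a neighbouring zinc finger family, also favour GC-rich sites. DAP-seq (DNA affinity purification sequencing) finds the genomic fragments that a tagged factor holds outside the cell, with the methylation of the native DNA in place. In ampDAP-seq the fragments are first copied by PCR, which leaves the sequence as it was and removes cytosine methylation. The pair of assays addresses whether binding depends on the state of the DNA as well as on its sequence.

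SP41 was tested in 4 libraries, which are the DNA binding domain (DBD) on amplified DNA, the full length protein on amplified DNA, the DBD on native DNA and the full length protein on native DNA. The labels of both native libraries name the protein AquSP and those of both amplified libraries AquSP41. Each protein was made by in vitro translation as a HaloTag fusion and incubated with adapter-ligated genomic DNA of swimming larvae at 0 h, sheared to a mean of 200 bp. Amplified DNA had been through 11 PCR cycles before the incubation, and all captured DNA was amplified for 20 cycles. Every group was 1 library, so no value below has a replicate, and all lists of a kind of DNA share 1 control library made with the empty HaloTag. The other 12 lists came from NRF and YY1, each as DBD and full length, and from EGR and GLI as DBD, on both kinds of DNA. The 4 SP41 libraries held 2603367 to 2945461 usable fragments and 7341 to 15399 peaks, 46650 in all.

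The share of a factor's regions that it held alone differed widely between the 5 factors. It was 44.7% for SP41, beside 71.1% for YY1 (16541 of 23277), 44.1% for GLI (4997 of 11328), 44.0% for NRF (879 of 1997) and 27.7% for EGR (3755 of 13549). The number of peaks of other factors also differed, from 73793 for SP41 to 117399 for NRF, and EGR and GLI had DBD lists only. The part of these numbers in the shares was not tested. Among shared SP41 regions, EGR was the most frequent partner, with a peak in 8433 regions (65.1%), and 4794 regions (37.0%) held SP41 and EGR alone. YY1 had a peak in 4730 shared regions (36.5%), GLI in 4403 (34.0%) and NRF in 608 (4.69%). The count of SP41-only regions therefore leaned on EGR more than on any other factor: without the EGR lists it was 15405, or 65.5% of SP41 regions. Without YY1 it was 12764, without GLI 11931 and without NRF 10630.

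SP41-only regions were found mostly by 1 of the 4 libraries. A peak in a single list made up 6556 SP41-only regions (62.7%, interval 61.8 to 63.6%), against 4737 shared regions (36.6%), with 48.2% over all SP41 regions. Peaks in all 4 lists were present in 532 SP41-only regions (5.09%, interval 4.68 to 5.52%), against 3009 shared regions (23.2%), with 15.1% over all SP41 regions. Without the EGR lists the share of SP41-only regions in all 4 lists was 11.6%. A further 2371 SP41-only regions had peaks in 2 lists and 1000 in 3 lists. SP41-only regions in 1 list had a median length of 161 bp, against 259.5 bp in all 4 lists. A longer region can more easily share 1 bp with a peak of another factor. The part of length in the shares by number of lists was not tested. The most frequent pattern was a peak of the DBD on amplified DNA alone, in 2822 SP41-only regions (27.0%), against 2183 shared regions (16.9%). The DBD on native DNA alone held 1700 SP41-only regions (16.3%), the full length protein on amplified DNA alone 1623 (15.5%) and the full length protein on native DNA alone 411 (3.93%). Of shared regions these patterns made up 10.5%, 7.30% and 1.94% in the same order. Among patterns with 2 lists, both constructs on amplified DNA (898 regions) and the DBD on both kinds of DNA (769 regions) were the most frequent. Their shares were near those of shared regions, at 8.59% against 7.96% and 7.35% against 9.15%.

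**Figure D1:**
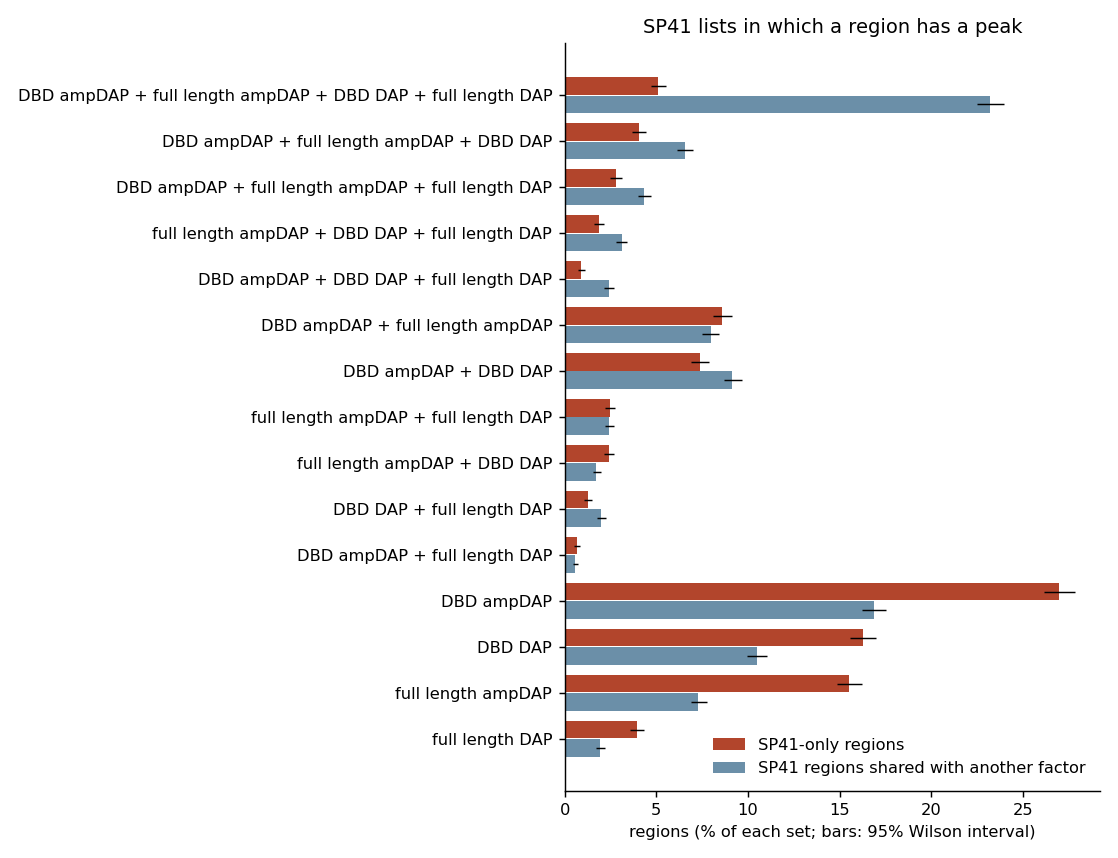
SP41-only regions (red) and SP41 regions shared with another factor (blue) by the SP41 lists in which they have a peak, as a percentage of each set, with 95% Wilson intervals for counting error. The bar for all 4 lists is 5.09% of SP41-only and 23.2% of shared regions, and each of the single-list bars at the bottom is longer for SP41-only regions.

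By kind of DNA, 5343 SP41-only regions had peaks on amplified DNA only (51.1%, interval 50.1 to 52.0%), 2241 on native DNA only (21.4%) and 2875 on both (27.5%). In shared regions these shares were 32.1%, 14.4% and 53.5%. Over all SP41 regions they were 40.6% for amplified only, 17.5% for native only and 41.9% for both. The ratio of amplified-only to native-only regions was 2.38 among SP41-only regions and 2.23 among shared ones. Counting every region with a DBD peak, the ratio of amplified to native was 1.44 in SP41-only and 1.21 in shared regions. For the full length protein it was 2.26 and 1.42. The lean to amplified DNA was thus similar by the exclusive classes and larger in SP41-only regions by all regions with a peak. Leaving out the DBD list on amplified DNA brought the amplified-only share of SP41-only regions to 33.1%, and leaving out the DBD list on native DNA to 77.3%, as each list fills its own class. The amplified lists were also longer, with 27405 SP41 peaks, than the native lists, with 19245. When every SP41 list was cut to its 7341 strongest peaks, 5427 SP41-only regions were left, 37.1% of them on amplified DNA only and 35.3% on native DNA only. Cutting the lists to equal length by itself draws both shares together, so it does not measure the lean to amplified DNA. A −log10 q of at least 5 in all lists gave an amplified-only share of 61.4%, and a fold enrichment of at least 5 gave 76.3%. Joining by summits within 50 bp gave 48.9%. The fold threshold left 3748 DBD and 6219 full length peaks on amplified DNA, against 1818 and 1851 on native DNA. The part of such unequal numbers in these shares was not tested. In the lists of equal length the share in all 4 lists stayed low, at 5.33% of SP41-only against 19.8% of shared regions.

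By construct, 5291 SP41-only regions had DBD peaks only (50.6%), 2290 full length peaks only (21.9%) and 2878 both (27.5%). Shared regions had DBD peaks only in 36.5%, full length peaks only in 11.7% and both in 51.8%. Over all SP41 regions the shares were 42.8% for the DBD only, 16.2% for full length only and 41.0% for both. The ratio of DBD-only to full-length-only regions was 2.31 among SP41-only and 3.13 among shared regions. Without the DBD list on amplified DNA the DBD-only share of SP41-only regions was 32.3%, and without the full length list on amplified DNA 77.6%. With lists of equal length, 39.9% of SP41-only regions had DBD peaks only and 34.6% full length peaks only. Here too the cut by itself draws both shares together. The DBD-only share was 44.5% with a −log10 q of at least 5 in all lists, and 29.2% with a fold enrichment of at least 5. Whether another factor had a peak in the region also differed by the kind of DNA on which peaks were called. The lists of the other factors were unequal, with 33338 peaks on amplified and 40455 on native DNA. For EGR the numbers were 6336 and 12855. The part of these numbers in the shares below was not tested. Of 19306 regions with an SP41 peak on amplified DNA, 59.8% had no peak of another factor on amplified DNA, but 3318 of these had one on native DNA. Of 13910 regions with an SP41 peak on native DNA, 40.7% had no peak of another factor on native DNA, and 552 of these had one on amplified DNA.

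SP41-only regions held a falling share of SP41's peaks as the peaks grew stronger. Strength here is the authors' −log10 q against the empty HaloTag control, which depends on the number of fragments as well as on the fold. SP41-only peaks are set against shared peaks of the same list. In the DBD list on amplified DNA 38.3% of peaks lay in SP41-only regions, in the full length list on amplified DNA 37.2%, in the DBD list on native DNA 34.4% and in the native list of the full length protein 27.0%. Their mean was 34.2%, and 60.3% without the EGR lists. Among the strongest 10% of peaks of each list these shares were 16.04%, 11.3%, 12.4% and 5.85% in the same order, against 48.4%, 48.9%, 48.3% and 36.1% among the weakest 10%. The decline appeared in all 4 lists, with little change over the weakest 3 of 10 equal parts of both amplified lists. In the native list of the full length protein the weakest 5 parts changed little, at 36.1%, 33.2%, 33.1%, 32.7% and 34.2%. Of the 100 strongest peaks, 6 lay in SP41-only regions for the DBD on amplified DNA, 5 for the full length protein on amplified DNA, 1 for the DBD on native DNA and 4 for the full length protein on native DNA. Ranked by fold enrichment instead, the 100 highest held 18, 12, 9 and 4 such peaks in the same order. Of the 1000 highest by fold, 26.9%, 22.3%, 17.9% and 14.8% lay in SP41-only regions. By −log10 q these shares were 14%, 10.5%, 11% and 8%.

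**Figure D2:**
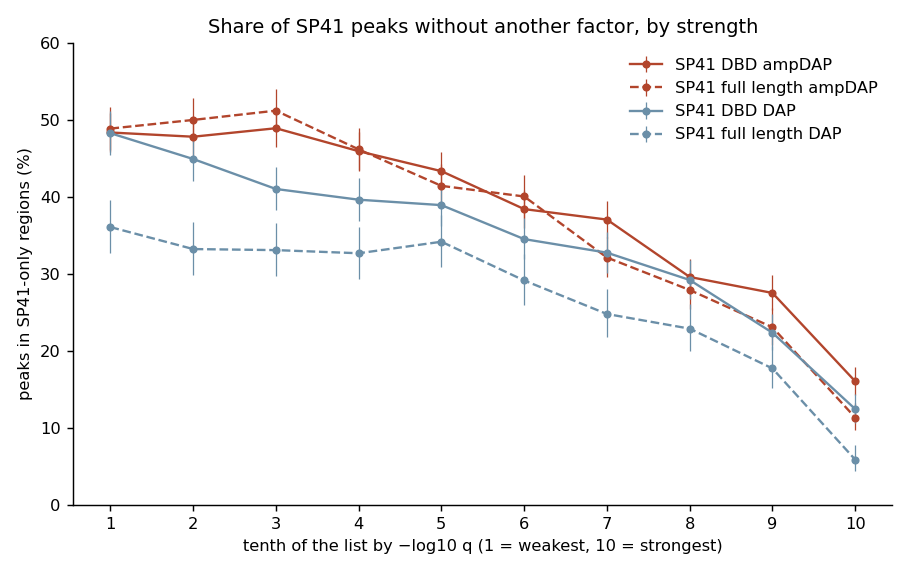
Share of the peaks of each SP41 list that lie in SP41-only regions (vertical axis, percent, with 95% Wilson intervals) by 10 equal parts of the list in −log10 q (horizontal axis, 1 weakest to 10 strongest). All 4 lines fall towards the right, and the highest point of the strongest part is 16.04%.

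Peaks in SP41-only regions had fewer fragments and shorter spans, while their median fold enrichment differed little. For the DBD on amplified DNA the median −log10 q was 7.60 in SP41-only and 10.2 in shared regions, the median pileup at the summit 26 and 36 fragments, and the median length 166 and 198 bp. For the full length protein on amplified DNA the medians were 10.7 and 15.998 in −log10 q, 28 and 42 fragments, and 168 and 199 bp. For the DBD on native DNA they were 5.30 and 6.80, 21 and 26 fragments, and 180 and 222 bp. For the full length protein on native DNA they were 6.23 and 7.80, 22 and 27 fragments, and 166 and 201 bp. The quartiles of SP41-only and shared peaks overlapped in every one of these measures. Median fold enrichment over the control was 3.99 in both sets for the DBD on amplified DNA. It was 4.96 in SP41-only and 5.24 in shared regions for the full length protein on amplified DNA, 3.61 and 3.83 for the DBD on native DNA, and 3.99 and 4.20 for the full length protein on native DNA. The difference in median fold, SP41-only minus shared, changed when the lists were cut. With SP41 lists of equal length it was 0.17 for the DBD and 0.15 for the full length protein on amplified DNA. On native DNA it was then −0.12 and −0.21. Without the cut it was −0.28 for the full length protein on amplified DNA. Without the EGR lists the gaps were smaller: the difference in median −log10 q was −1.76, −3.70, −0.74 and −1.01 in the order of lists above, against −2.57, −5.25, −1.51 and −1.57 with them. The difference in median fold was then between −0.15 and 0.00 in all 4 lists. The highest folds of SP41-only peaks were 12.4, 20.0, 8.31 and 9.01 in the same order, against 17.4, 25.5, 12.1 and 17.4 for shared peaks.

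The local background expected from the control can be computed from the pileup and the fold enrichment, and it was lower under SP41-only peaks in all 4 lists. Its median was 5.51 fragments in SP41-only and 8.01 in shared regions for the DBD on amplified DNA, and 4.51 and 6.87 for the full length protein on amplified DNA. On native DNA the gap was smaller, with 5.06 and 6.02 for the DBD and 4.70 and 5.51 for the full length protein. Peaks within 1% of the smallest local background in their list were 10.6% of SP41-only and 4.38% of shared peaks for the DBD on amplified DNA. They were 16.4% and 6.90% for the full length protein on amplified DNA, 8.004% and 4.27% for the DBD on native DNA, and 10.6% and 5.69% for the full length protein on native DNA. When each list was divided into 4 equal parts by background, the SP41-only share was 53.0% in the part of lowest background and 23.1% in that of highest for the DBD on amplified DNA. The same shares were 53.9% and 19.8% for the full length protein on amplified DNA, 42.6% and 26.1% for the DBD on native DNA, and 35.5% and 18.4% for the full length protein on native DNA. Within each of these parts the median fold enrichment of SP41-only peaks was below that of shared peaks, also in the list where the medians over all peaks were both 3.99. At the lowest background that list had a median fold of 4.65 in SP41-only and 4.99 in shared regions, and at the highest 3.09 and 3.19. The part that local background plays in whether another factor had a peak was not tested.

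**Figure D3:**
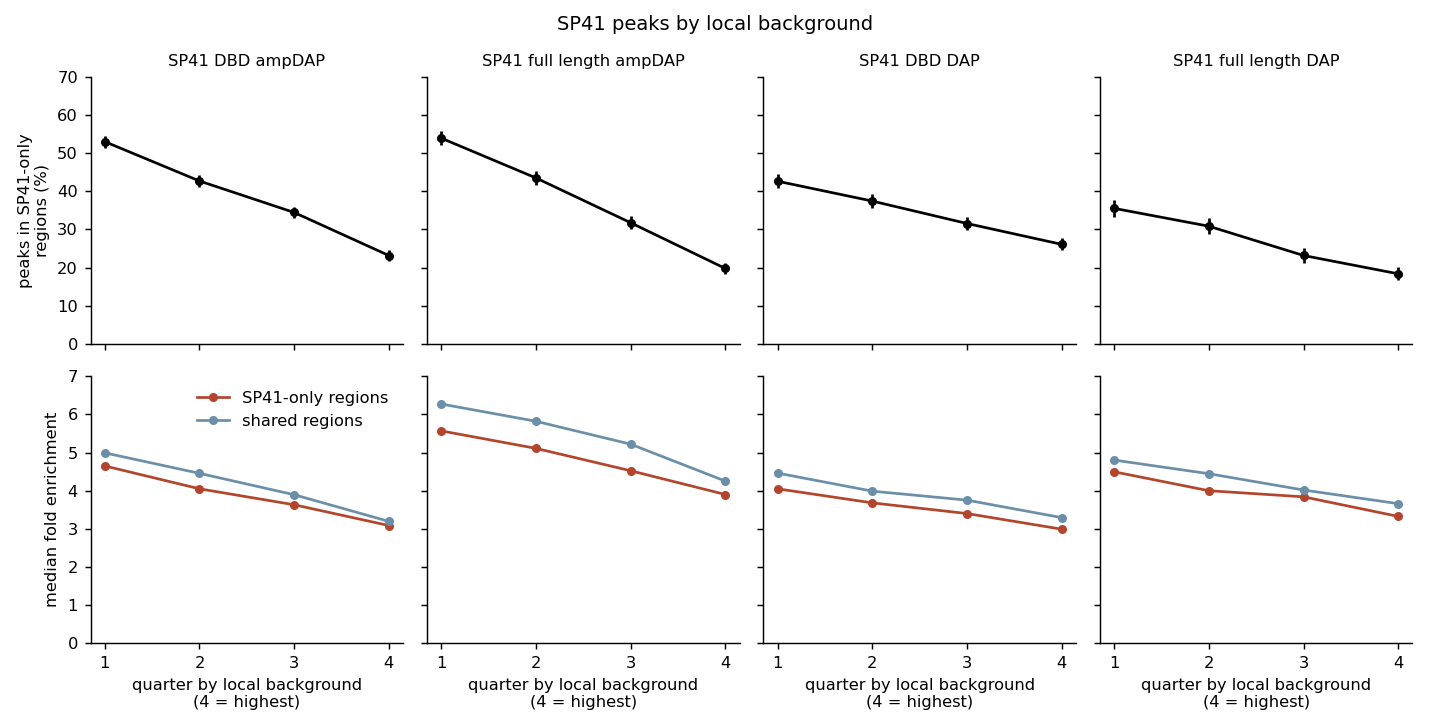
Peaks of each SP41 list in 4 equal parts by the local background expected from the control (1 lowest, 4 highest). The upper row gives the share of peaks in SP41-only regions with 95% Wilson intervals, which falls in every list, and the lower row the median fold enrichment of SP41-only (red) and shared (blue) peaks, where red lies below blue at all 16 positions.

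A smaller share of SP41-only than of shared peaks had a partner on the other kind of DNA. For the DBD, 30.8% of SP41-only peaks on amplified DNA overlapped a DBD peak on native DNA, against 58.6% of shared peaks. For the full length protein the same shares were 28.5% and 58.5%. Starting from native DNA, 44.4% of SP41-only and 69.9% of shared DBD peaks had a partner on amplified DNA, and 64.3% and 82.2% of full length peaks. The strongest peaks had partners more often in both sets. In the strongest of 4 equal parts of each list, 53.1% of SP41-only and 76.6% of shared peaks had a partner for the DBD on amplified DNA, and 65.0% and 85.2% for the full length protein on amplified DNA. For the DBD on native DNA these shares were 64.1% and 83.5%, and for the full length protein on native DNA 92.1% and 96.7%. The shared peaks were also longer, and with partners defined by summits within 50 bp of each other the gap was smaller in the first 3 lists and turned round in the last. It was then −16.4 percentage points for the DBD on amplified DNA, −13.3 for the full length protein on amplified DNA, −13.4 for the DBD on native DNA and 3.01 for the full length protein on native DNA. This definition was added after the data had been seen.

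**Figure D4:**
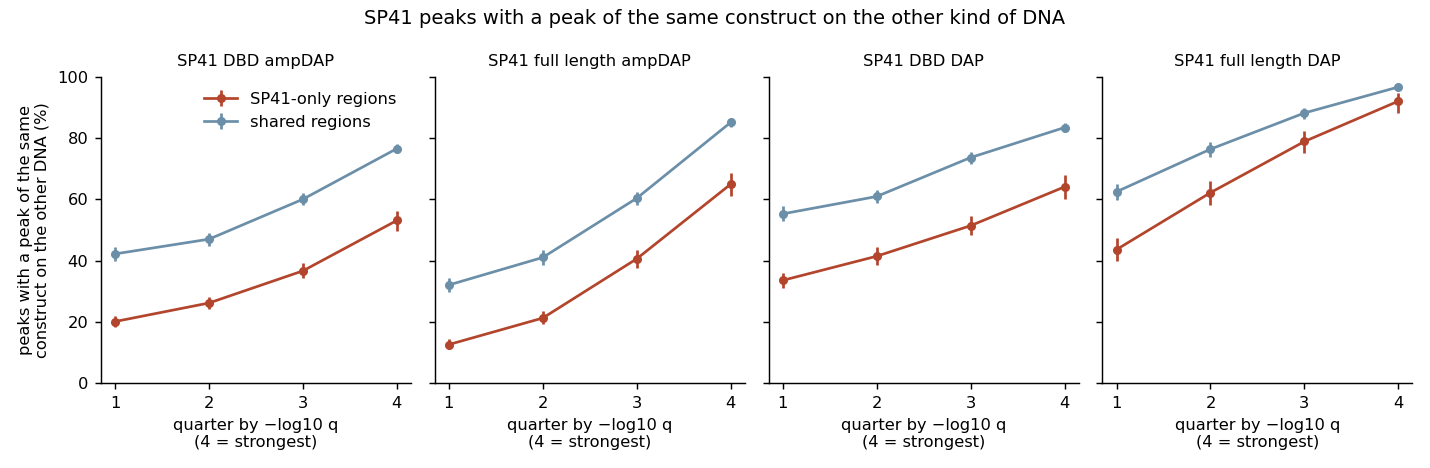
Percentage of SP41 peaks that overlap a peak of the same construct on the other kind of DNA (vertical axis, with 95% Wilson intervals) by 4 equal parts of the list in −log10 q (horizontal axis, 4 strongest), for SP41-only (red) and shared (blue) regions. Red lies below blue in all 16 positions and comes closest for the strongest full length peaks on native DNA, at 92.1% and 96.7%.

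The other construct gave the same order. On amplified DNA, 36.3% of SP41-only and 59.0% of shared DBD peaks overlapped a full length peak, and 47.9% and 73.7% of full length peaks overlapped a DBD peak. On native DNA, 23.2% of SP41-only and 52.1% of shared DBD peaks overlapped a full length peak, and 48.1% and 76.8% of full length peaks overlapped a DBD peak.

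Where SP41-only regions did have peaks in several lists, the summits lay close together. The median distance between the amplified and the native DBD summit was 18 bp over 1816 SP41-only regions and 19 bp over 5357 shared regions. For the full length protein it was 12 bp over 1273 SP41-only regions and 14 bp over 4285 shared regions. Between DBD and full length summits it was 12 and 13 bp on amplified DNA and 18 and 22 bp on native DNA. A distance of at most 50 bp was present in 80.3% of SP41-only and 76.4% of shared regions for the DBD, and in 90.5% and 83.2% for the full length protein. In the regions with peaks in all 4 lists, all summits fell within a median of 32 bp in 532 SP41-only regions and 45 bp in 3009 shared regions. The median length in that class was 259.5 bp for SP41-only and 416 bp for shared regions, and the part of length in these distances was not tested.

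**Figure D5:**
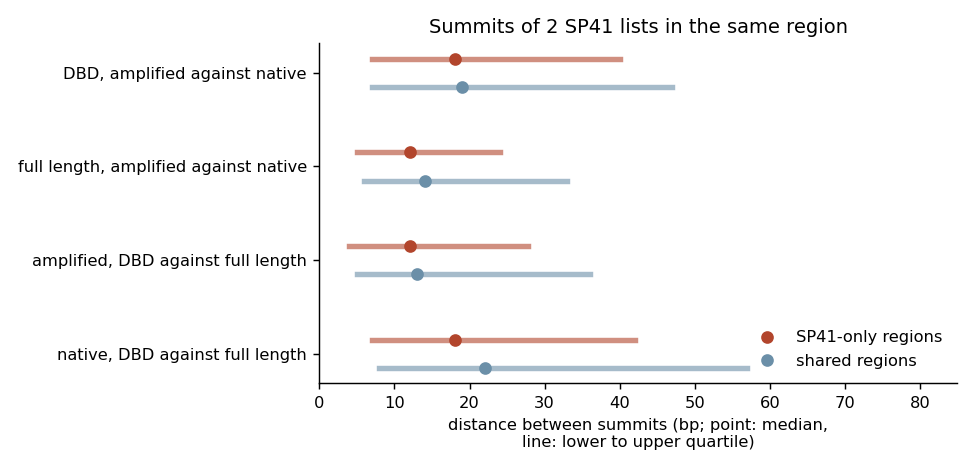
Distance between the summits of a pair of SP41 lists within the same region (horizontal axis, bp), as the median (point) and the range from lower to upper quartile (line), for SP41-only (red) and shared (blue) regions. The red medians are 18, 12, 12 and 18 bp from top to bottom and each lies below the blue one.

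Strength in one assay said only part of the strength in the other. Over the 1816 SP41-only regions with DBD peaks on both kinds of DNA, Spearman's rho between the −log10 q values was 0.40, against 0.43 over 5357 shared regions. For the full length protein it was 0.47 over 1273 SP41-only regions and 0.58 over 4285 shared regions. These coefficients are across regions of the same libraries, with a separate control for each kind of DNA, and are no measure of replication. The amplified fold enrichment was above the native one in 57.7% of these SP41-only DBD regions and in 77.2% of the full length regions, against 52.0% and 70.2% of shared regions. Between constructs on amplified DNA, the DBD fold was the higher one in 29.2% of 2142 SP41-only regions, with a median of 4.44 for the DBD and 5.23 for the full length protein. By place in its own list, ordered by −log10 q, the DBD peak stood higher in 55.5% of them, so fold and place gave opposite orders. On native DNA the DBD fold was higher in 45.9% of 950 SP41-only regions and its place in 61.8%. Lists differ in length, number of fragments and, between the kinds of DNA, control, so values set side by side across lists show no size of effect.

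Regions with peaks in more lists were stronger in each of them. In the DBD list on amplified DNA the median −log10 q of SP41-only peaks was 6.45, 8.07, 10.1 and 12.7 for regions in 1, 2, 3 and all 4 lists. In the full length list on amplified DNA it was 8.35, 10.4, 13.1 and 21.0. In the DBD list on native DNA it was 4.55, 5.27, 6.14 and 7.56, and in the native full length list 4.61, 5.83, 6.39 and 7.80. The region length followed, with medians of 161, 200, 225 and 259.5 bp. Over all SP41-only regions the median length was 177 bp (range 138 to 1093 bp), against 311 bp (141 to 2958 bp) in shared regions, where peaks of other factors add to the joined length.

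The region with the highest smallest −log10 q over the 4 lists lay on contig 13512, positions 223552 to 223808, and was also the strongest SP41-only peak of both native lists. It had a −log10 q of 35.6 for the DBD on amplified DNA (rank 307 in the list), 84.1 for the full length protein on amplified DNA (rank 95), 51.0 for the DBD on native DNA (rank 9) and 39.5 for the full length protein on native DNA (rank 21). Its fold enrichment was 4.45, 7.23, 7.07 and 6.40 and its pileup 117, 173, 109 and 92 fragments in the same order of lists, and the 4 summits fell between positions 223671 and 223675. The nearest peak of another factor was 164 bp away. This placed it among the top 0.0756% and 0.286% of both native lists, against 1.99% and 0.791% of the amplified lists, DBD first.

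The strongest SP41-only peak of the DBD on amplified DNA stood higher in the amplified lists, at the top 0.156% and 4.06%, against 12.5% and 17.7% on native DNA. It lay on contig 13398, positions 77788 to 78006, with a −log10 q of 67.4 (rank 24) for the DBD and 52.8 (rank 487) for the full length protein on amplified DNA. On native DNA it had 12.3 (rank 1485) for the DBD and 12.9 (rank 1302) for the full length protein. Fold enrichment was 11.6 and 10.6 on amplified DNA for the DBD and the full length protein, against 5.45 and 5.55 on native DNA. The strongest SP41-only peak of the full length protein on amplified DNA, on contig 13482, positions 154133 to 154355, had a −log10 q of 95.9 (rank 48) there. It had 28.3 (rank 673) for the DBD on amplified DNA, 18.1 (rank 447) for the DBD on native DNA and 18.2 (rank 522) for the full length protein on native DNA. A region of 224 bp on contig 12763, positions 1100 to 1323, stood among the top 0.818% of DBD and 0.566% of full length peaks on amplified DNA and the top 0.872% of full length peaks on native DNA, but at the top 16.003% of DBD peaks on native DNA. The next peak of another factor on that contig was 27770 bp away. On contig 12260, positions 4198 to 4401, the ranks were 333, 153, 114 and 88, and the 4 summits lay at positions 4319 to 4322.

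Other strong members held fewer lists or several peaks. A region on contig 8237, positions 2141 to 2412, had DBD peaks on amplified (−log10 q 58.3, rank 37) and native DNA (12.6, rank 1394) and no full length peak. The region on contig 13356, positions 158986 to 159703, held 7 SP41 peaks, the most of any SP41-only region, with ranks 43, 343, 2998 and 3451 for its strongest peak in each list. On contig 13516, positions 827341 to 827939, 5 peaks were joined, and the full length protein on amplified DNA reached a −log10 q of 88.7 (rank 71). The full length peak on native DNA on contig 10083, positions 20 to 244, ranked 83, and the DBD peak on native DNA on contig 10177, positions 3732 to 3890, ranked 124. The other regions with a high smallest −log10 q over the 4 lists lay on contig 13377, positions 127062 to 127208, where it was 22.9, and on contig 13335, positions 95304 to 95668, where it was 17.1.

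The strongest regions seen in 1 list only showed how far a peak could stand without a partner. The DBD on amplified DNA alone held a peak on contig 7745, positions 401 to 551, with a fold enrichment of 11.6, a −log10 q of 44.8 and rank 122. The full length protein on amplified DNA alone held one on contig 13519, positions 480035 to 480226, with a fold of 8.76, a −log10 q of 45.5 and rank 759, and 6 bp separated it from a peak of another factor. The DBD on native DNA alone held one on contig 13433, positions 99467 to 99635, with a fold of 5.39, a −log10 q of 16.9 and rank 560. The full length protein on native DNA alone held one on contig 13157, positions 40765 to 40940, with a fold of 6.39, a −log10 q of 14.5 and rank 981.

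The most unequal regions were named by the ratio of the amplified to the native −log10 q, which come from lists with different controls. For the DBD it was highest, at 13.7, on contig 13514, positions 10401 to 10712, with 21.1 on amplified and 1.54 on native DNA. It was lowest, at 0.153, on contig 7565, positions 1427 to 1898, with 1.63 on amplified and 10.7 on native DNA. For the full length protein it was highest, at 29.8, on contig 13378, positions 199526 to 199740, with 39.5 on amplified and 1.33 on native DNA. It was lowest, at 0.249, on contig 12743, positions 30872 to 31222, with 2.91 on amplified and 11.7 on native DNA, where the amplified and native summits lay apart, at positions 30884 and 31110.

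SP41-only regions lay among the peaks of other factors and not far from them. The median gap to the nearest peak of another factor was 766 bp where the contig held one, and 785 of the 10459 regions had none on their contig. A gap of at most 200 bp was present in 13.5% of SP41-only regions, and of at most 1000 bp in 54.4%. Between summits the median distance was 980 bp, and 47.0% were within 1000 bp. Regions held by another factor alone had median gaps of 687 bp for GLI, 750 bp for EGR, 763 bp for NRF and 1118 bp for YY1, measured to peaks of the remaining factors, whose numbers differ. Over the 9674 SP41-only regions with another factor on the contig, the nearest was YY1 for 4730 (48.9%), EGR for 2738 (28.3%), GLI for 1908 (19.7%) and NRF for 298 (3.08%). These factors supplied 51.4%, 26.0%, 18.5% and 4.13% of all peaks of other factors in the same order. The gap was 545 bp in SP41-only regions with peaks in all 4 lists, against 804 bp in those with 1 list.

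The next SP41-only region was a median of 3075 bp away, and the next region with any SP41 peak 1304.5 bp. In the order of regions along each contig, 6934 SP41-only regions had no other as a direct neighbour, and the longest unbroken run was 7 regions on contig 13436, positions 127912 to 134924. Members lay on 2308 of the 5516 contigs with any region (41.8%). The contig with the most was 13522, with 159 of its 344 SP41 regions. Over the 249 contigs with at least 20 SP41 regions, the SP41-only share had a median of 42.9% and quartiles of 36.8% and 50.3%. It ranged from 14.8% on contig 13104 (4 of 27) to 78.3% on contig 13287 (18 of 23). These extremes rest on few regions.

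The longest SP41-only regions were 1093 bp on contig 13509, positions 218098 to 219190, 947 bp on contig 13520, positions 160504 to 161450, and 888 bp on contig 13521, positions 1007626 to 1008513. All had peaks in the 4 lists, from 5 or 6 joined peaks. At the edge of the rule, 59 SP41-only regions came within 10 bp of a peak of another factor, 7 of them with no base between. Examples are contig 12507, positions 13820 to 14056, with 1 DBD peak on amplified DNA at a fold of 6.38, and contig 13471, positions 3244 to 3425, with DBD peaks on both kinds of DNA at 3.63 and 3.09. On the other side, 48 shared regions owed their place to at most 10 bp of overlap, 8 of them to 1 bp. Contig 13231, positions 114735 to 115069, and contig 13488, positions 451324 to 451730, each shared 1 bp with a YY1 peak. The median overlap in shared regions was 171 bp.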

How the data were processed

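Of the 36 samples in the series, the 16 DAP-seq and ampDAP-seq libraries with a peak list were analysed here, each a group of 1 library taken from its title. The others, among them methylation libraries, were not analysed here. Per the labels' protocols, sheared larval DNA with adapters was incubated with a HaloTag fusion and purified. The submitters' processing notes list Bowtie, Bowtie2, BS-Seeker2, fastp and CASAVA 1.8.2 without saying which read the binding libraries. Their aligner and the genome build are not given in the sources used here. MACS2 2.1.2 was run by the authors on each library, per the file headers, with a q cutoff of 0.05 and at most 1 duplicate kept. Its control was the empty HaloTag library on amplified or native DNA, and the larger of the pair was randomly down-sampled. Weak peaks near the cutoff can therefore come and go.

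Per the file headers, the pileup is a signal of fragment coverage at the summit. The deposited q-values are −log10 values per peak, as are the p-values. The deposited fold enrichment is a ratio of pileup to local background. All are the authors' values. SP41-only and shared peaks were compared within a list, and values of single regions or of pairs of lists are set side by side as descriptions. The headers of both YY1 lists on native DNA carry a run letter of their own, which no label explains. Usable fragments ranged from 2161903 to 3168602 per library.

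Peaks sharing at least 1 bp were joined, and where a list had several peaks in a region the strongest stood for it. The local background was computed as (pileup + 1)/fold − 1. Shares have 95% Wilson intervals, which treat regions or peaks as independent and cover counting error only. They do not cover differences between libraries or the dependence of PCR copies. Named regions were the 3 strongest SP41-only peaks per list, the 5 with the highest smallest −log10 q over the lists, the strongest per single list, the extremes of amplified over native −log10 q per construct, the 3 longest, and those nearest the limit of the rule. The regions and lists were chosen with earlier results of these data known. The joining was tried on 5000 simulated sites placed too far apart to touch, and 100% were assigned rightly. That check covers the coding only and says nothing about closely spaced peaks. On the real lists, bedtools 2.31.1 gave the same 52356 and 10459 regions. No genome was used here, so sequences, motifs, CpG content and nearest genes are not reported. Computation used Python 3.11.15, numpy 2.4.6, pandas 2.3.3, scipy 1.17.1 and matplotlib 3.10.9.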

Additional observations from a re-analysis of the deposited data

Results flagged for a closer look

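The difference in median fold enrichment between SP41-only and shared peaks had another sign in 1 of the 4 lists. It was 0.00022 for the DBD on amplified DNA, in effect no difference, and below 0 in the other 3 lists. With SP41 lists of equal length it was above 0 in both amplified lists, at 0.17 for the DBD and 0.15 for the full length protein. The difference between lists was not tested. The differences in −log10 q, in peak length and in the share of the strongest peaks with a partner on the other kind of DNA were below 0 in all 4 lists.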

How the results depend on the processing

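The main values are 10459 SP41-only regions, 44.7% of SP41 regions, 51.1% of them on amplified DNA only, 50.6% held by the DBD only and 5.09% in all 4 lists, with a mean of 34.2% of the peaks per list. Over 11 results and their alternatives 63 values stayed close to the main one and 60 moved. No mean over the lists changed sign, but values of single lists did: the fold difference of the full length protein on amplified DNA was 0.15 with lists of equal length, against −0.28. The gap in partners on the other DNA of the strongest full length peaks on native DNA was 3.01 percentage points by summits, against −4.62 by overlap. A −log10 q of at least 5 in all lists gave 47.8% of SP41 regions, 61.4% amplified only and 44.5% DBD only. A fold enrichment of at least 5 gave 4928 regions, 54.0% of SP41 regions, 76.3% amplified only, 29.2% DBD only, 1.12% in all 4 lists, 44.2% of peaks and a fold difference of −0.35. Joining by 50% of the shorter peak gave 47.7% of SP41 regions, and joining by summits within 50 bp gave 16161 regions, 60.3% of SP41 regions, 48.9% amplified only, 53.0% DBD only, 4.14% in all 4 lists, 50.6% of peaks, a fold difference of −0.41 and a length difference of −18.5 bp. Joining peaks up to 200 bp apart gave 39.7% of SP41 regions and 29.0% of peaks, and leaving out both YY1 lists on native DNA 46.1% of SP41 regions. SP41 lists of equal length gave 5427 regions, 36.9% of SP41 regions, 37.1% amplified only, 39.9% DBD only, 28.8% of peaks and a fold difference of −0.0030. Native lists alone gave 5794 regions, 41.4% of SP41 regions and 60.7% DBD only, and amplified lists alone 60.6% and 43.2%. Measured between summits, 47.0% of SP41-only regions were within 1000 bp of another factor's peak, against 54.4% between edges. Leaving out 1 SP41 list or 1 other factor gave 7722 to 15405 regions, 41.8% to 65.5% of SP41 regions, 33.1% to 77.3% amplified only and 32.3% to 77.6% DBD only. Leaving out 1 other factor gave 5.12% to 11.6% in all 4 lists and 34.9% to 60.3% of peaks, both highest without EGR. The mean differences then ranged from −0.20 to −0.071 in fold, −3.14 to −1.80 in −log10 q and −38.5 to −24.75 bp in length, all smallest in size without EGR. Alternatives for these differences other than the thresholds and the joining by summits or by 50% were added after seeing the data. The causes were not tested beyond the fewer peaks or lists each setting leaves. No paired analysis was possible because each group is 1 library. The motif and CpG alternatives were not run. A region without a peak of another factor may hold one below the q cutoff, which these lists cannot show.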
